A study of Mus musculus with 24 samples.

Results

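The outer wall of the mouse thoracic aorta was examined through 10 transcripts that mark adventitial fibroblasts, the connective tissue cells that surround the smooth muscle layer. The genes were chosen by name: Pdgfra, Dpt, Lum, Dcn, Pi16, Ly6a, Serpinf1, Clec3b, Dpep1 and Cd34. They are 10 of the 25941 genes of the count table, with 1 row each, and all 10 were among the 14528 genes with enough reads to be tested. RNA came from thoracic aortas of adult male wildtype C57BL/6 mice, 10 to 12 weeks of age, and was sequenced after poly(A) selection. The 3 groups of 8 libraries differed in their chow over 3 weeks: celecoxib was added at 100 mg/kg/day in one, rofecoxib at 50 mg/kg/day in another, and no drug in the control chow. Both drugs are selective inhibitors of cyclooxygenase-2. Every mouse, control mice included, received interleukin-1β (10 ug/kg, into the peritoneum) and was killed 4 h later, at zeitgeber time 11, so no aorta without the cytokine was measured. The submitters call the 8 libraries of a group biological replicates; whether aortas were pooled is not given in the sources used here. Totals per library ran from 21668798 to 21700121 reads.

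Adventitial fibroblasts build and maintain the collagen-rich outer coat of arteries. They respond to platelet-derived growth factors through the receptor that Pdgfra encodes, and this receptor is the usual marker that sets fibroblasts apart from the smooth muscle cells of the same wall. Decorin, lumican and dermatopontin, the products of Dcn, Lum and Dpt, are secreted proteins that bind collagen fibrils and regulate their assembly. Fibroblasts that carry Pi16, Ly6a (the surface antigen Sca-1) and Cd34 are often described as progenitor-like and lie around vessels in many mouse tissues. Ly6a and Cd34 are not exclusive to fibroblasts, since endothelial cells also carry them.

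The levels of the 10 genes were examined first. Bulk RNA does not show which cells the reads came from, so these levels do not test the label. Pdgfra had between 101 and 194 CPM (read counts scaled to a common library size, with TMM factors between libraries) in the 24 libraries and was at 0 in none. Levels of different genes were compared per kilobase of exon, with the union of all annotated exons of a gene as its length. This union can be longer than the transcript expressed, so the order is approximate. It was 10024 bases for Pdgfra, 7290 for Cd34 and 6364 for Pi16. Per kilobase, Dcn stood highest of the 10 genes in every diet group. Its control level was 188.5 CPM per kb, above 98.6% of the genes tested that had a length. Ly6a came next at 144 CPM per kb in control aortas, and Dpt, Serpinf1 and Clec3b followed between 86.5 and 92.4 CPM per kb. Lum at 53.0, Dpep1 at 32.1, Pi16 at 29.8, Cd34 at 20.5 and Pdgfra at 12.8 CPM per kb closed the control order. The order of the 10 genes was the same in celecoxib aortas. In rofecoxib aortas Clec3b stood ahead of Dpt and Serpinf1, and the rest of the order was as in control aortas. In control aortas Dpt, Serpinf1 and Clec3b, and likewise Dpep1 and Pi16, were no farther apart than the SD of their libraries. A bulk sample cannot separate fewer fibroblasts from less RNA per fibroblast, and this holds for every level that follows.

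In the coordinates of the table, on mm9 and with the base of their starts not stated, Pdgfra (ENSMUSG00000029231) lies at chr5:75548114-75594431 and Dpt (ENSMUSG00000026574) at chr1:166726661-166754599. Dcn (ENSMUSG00000019929) at chr10:96942043-96980979 and Lum (ENSMUSG00000036446) at chr10:97027933-97035539 are followed on the same chromosome by Kera and Epyc, which belong to the same family of proteoglycans. Kera and Epyc, with 4 and 173 reads in 24 libraries, had too few reads to be tested.

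Promoter sequences are shown for 3 of the genes, because Pdgfra and Dpt varied together across libraries whereas Pi16 followed them least. RefSeq promoters of build GRCm38.p6 were matched by symbol for 6 of the 10 genes. The 250 bases upstream of each start are printed on the plus strand, with capitals for the E-box CANNTG, a palindrome bound by basic helix-loop-helix factors. They lie at chr5:75152001-75152250 for Pdgfra, chr1:164796413-164796662 for Dpt and chr17:29318632-29318881 for Pi16.
Pdgfra: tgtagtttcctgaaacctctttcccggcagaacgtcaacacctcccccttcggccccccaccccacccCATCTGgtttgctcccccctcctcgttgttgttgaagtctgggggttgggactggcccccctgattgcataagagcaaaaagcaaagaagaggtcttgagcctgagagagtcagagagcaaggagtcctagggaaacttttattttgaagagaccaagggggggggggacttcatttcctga
Dpt: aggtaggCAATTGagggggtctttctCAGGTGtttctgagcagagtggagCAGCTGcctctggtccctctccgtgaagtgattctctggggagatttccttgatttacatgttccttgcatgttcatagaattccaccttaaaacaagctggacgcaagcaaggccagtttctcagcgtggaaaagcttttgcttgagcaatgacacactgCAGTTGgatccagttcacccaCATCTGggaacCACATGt
Pi16: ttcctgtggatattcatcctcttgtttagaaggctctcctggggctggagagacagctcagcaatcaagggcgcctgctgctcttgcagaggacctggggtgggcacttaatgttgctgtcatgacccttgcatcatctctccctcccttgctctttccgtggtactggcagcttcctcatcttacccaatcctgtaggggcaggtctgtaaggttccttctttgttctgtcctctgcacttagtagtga
The Dpt window holds 6 E-boxes, the Pdgfra window holds 1 and the Pi16 window none. Among the 6 matched genes, 3 had an E-box, the third being Serpinf1, beside 66.2% of the 32851 promoters searched at the same length. The letters CCAAT, searched on both strands, were found for Serpinf1 and Pi16 and in 33.8% of all promoters, and TATAAA, also searched on both strands, was found for none of the 6 and in 12.4% of all. Overlaps between motifs were not removed. These matches describe the windows and nothing else.

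The first question is whether chronic rofecoxib changed the fibroblast markers after interleukin-1β. None of the 10 genes passed the test in rofecoxib aortas against control aortas (edgeR quasi-likelihood test, adjusted p under 0.05 over all 14528 genes), while 6.94% of all tested genes passed, 3.88% higher and 3.06% lower. DESeq2 also called 0 of the 10. At an unadjusted p under 0.05 there was 1 gene, Pdgfra, beside 4103 of all genes. The log2 fold changes of the 10 genes had a median of 0.188, with 9 above 0. Over all genes tested the median was 0.023, with 54.9% above 0. Since the 10 genes varied together (median r 0.755 over their pairs), these are not 9 separate observations.

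Pdgfra, the receptor that binds platelet-derived growth factors on fibroblasts, had the largest difference. In rofecoxib aortas its level ran from 116 CPM at the lowest through a median of 172 to 194 CPM at the highest, in control aortas from 106 through 127 to 153 CPM. Of the 8 rofecoxib libraries, 6 lay above every control library and 7 above the control median. The exception was rofecoxib replicate 4. The means were 165 ± 23.9 CPM with rofecoxib and 128.5 ± 16.9 CPM in control aortas (SD, n = 8 each). The log2 fold change of 0.36 (SE 0.13, 95% interval 0.10 to 0.63) missed the threshold at an edgeR adjusted p of 0.0756. In other settings the adjusted p of Pdgfra lay on either side of the threshold. It was 0.0435 with scaling by library size alone, 0.0406 when only rofecoxib and control libraries were fitted and 0.0337 with a term for replicates 1 to 4 against 5 to 8, whereas DESeq2 gave 0.058 and a fit with adipocyte and smooth muscle levels as covariates gave 0.352 at a log2 fold change of 0.31. Without 1 library at a time the fold change stayed between 0.33 and 0.42, and Pdgfra passed in 0 of 24 such fits.

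The other surface proteins had smaller differences, all within the spread of their libraries. Dpep1, a membrane-bound dipeptidase, ranged from 60.0 through a median of 99.2 to 136 CPM with rofecoxib and from 67.4 through 79.2 to 89.5 CPM in control aortas. Here 5 rofecoxib libraries lay above every control library and 1 lay below every one, so the groups overlapped at both ends of the control range; the log2 fold change was 0.29 (SE 0.18, edgeR adjusted p = 0.284). Ly6a averaged 199 ± 40.8 CPM with rofecoxib and 174 ± 14.0 CPM in control aortas (log2 fold change 0.20, SE 0.12, edgeR adjusted p = 0.284). Its values rest on a gene that belongs to a multigene family of similar sequences, among which reads may have been split in a way the table does not show. Cd34, a sialomucin of stromal, endothelial and haematopoietic progenitor cells, averaged 169 ± 36 CPM with rofecoxib and 150 ± 13.3 CPM in control aortas (log2 fold change 0.18, SE 0.12, edgeR adjusted p = 0.319). An overlapping gene, Gm16897, had 185 reads in all against 84622 for Cd34. Pi16, a peptidase inhibitor and marker of perivascular fibroblasts, was nearly level at 194 ± 52.1 CPM with rofecoxib and 189 ± 30.8 CPM in control aortas, a log2 fold change of 0.03 with a 95% interval of -0.27 to 0.33.

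The collagen-binding matrix proteins showed no uniform shift. Dcn averaged 1268 ± 260.2 CPM with rofecoxib and 1101 ± 140 CPM in control aortas, and 7 of 8 rofecoxib libraries exceeded the control median (log2 fold change 0.20, SE 0.16, edgeR adjusted p = 0.415). Lum averaged 134 ± 21.2 CPM with rofecoxib and 130 ± 17.8 CPM in control aortas, and Dpt averaged 163 ± 26.6 CPM with rofecoxib and 159 ± 19.9 CPM in control aortas. Their log2 fold changes were 0.05 (95% interval -0.27 to 0.36) for Lum and 0.04 (95% interval -0.22 to 0.29) for Dpt. The secreted serpin gene Serpinf1, whose product PEDF inhibits angiogenesis, had 203 ± 39.0 CPM with rofecoxib and 205 ± 20.9 CPM in control aortas, a log2 fold change of -0.01 with a 95% interval of -0.23 to 0.21. Clec3b, which encodes the plasminogen-binding protein tetranectin, averaged 98.5 ± 29.0 CPM with rofecoxib and 85.8 ± 13.7 CPM in control aortas (log2 fold change 0.20, SE 0.19, edgeR adjusted p = 0.488).

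**Figure D1:**
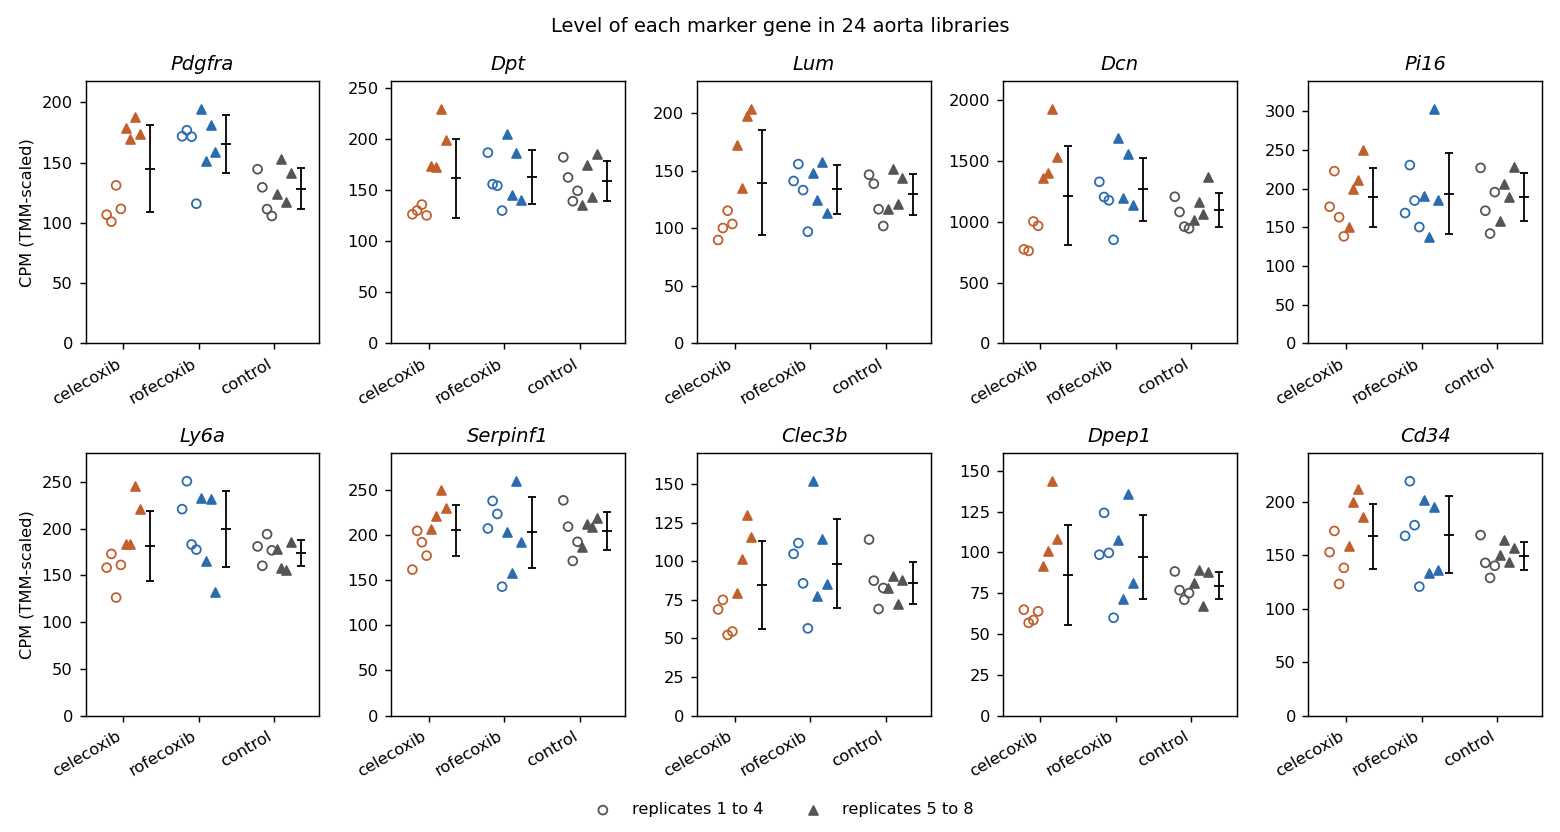
Level of each of the 10 genes in CPM after TMM scaling (vertical axes from 0) in celecoxib, rofecoxib and control aortas. Each symbol is 1 library, open circles for replicates 1 to 4 and filled triangles for replicates 5 to 8 by label number, with the mean and SD of 8 libraries at the right of each group; for Pdgfra, 6 rofecoxib libraries lie above all control libraries, and in celecoxib aortas the triangles stand above the circles for 8 of the 10 genes.

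The second comparison sets celecoxib, at its dose, against control. None of the 10 genes passed (edgeR adjusted p between 0.535 and 0.99), beside 0.0344% of all genes tested (0.00688% higher and 0.0275% lower), and none reached an unadjusted p under 0.05, beside 1969 of all genes; DESeq2 also called 0 of the 10. The log2 fold changes ran from -0.02 for Clec3b to 0.17 for Pdgfra, with a median of 0.086 against 0.001 over all genes. Pdgfra ranged from 101 through a median of 150.5 to 187 CPM with celecoxib, against 106 through 127 to 153 CPM in control aortas, and 4 celecoxib libraries lay above every control library. Dcn averaged 1216 ± 409 CPM with celecoxib and 1101 ± 140 CPM in control aortas, a log2 fold change of 0.14 with a 95% interval of -0.19 to 0.48. For Dcn, 3 celecoxib libraries exceeded every control library and 2 lay below every one. Cd34 averaged 168 ± 30.6 CPM with celecoxib and 150 ± 13.3 CPM in control aortas (log2 fold change 0.17, SE 0.12, edgeR adjusted p = 0.535). For Lum, Dpep1 and Ly6a the log2 fold changes were 0.11, 0.11 and 0.06, and for Dpt, Serpinf1 and Pi16 they were 0.02, 0.004 and -0.005.

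The drug diets were also set side by side, at doses that differ. None of the 10 genes passed between celecoxib and rofecoxib aortas, beside 4.89% of all genes tested, which is 710 genes (0.564% higher and 4.32% lower); that number lay between 0 and 1997 when 1 library was left out. No gene of the 10 reached an unadjusted p under 0.05, beside 3344 of all genes, and DESeq2 called 0 of the 10. Clec3b averaged 84.7 ± 28.4 CPM with celecoxib and 98.5 ± 29.0 CPM with rofecoxib, a log2 difference of -0.22 with a 95% interval of -0.60 to 0.16. Pdgfra differed by -0.19 (95% interval -0.45 to 0.08) and Dpep1 by -0.18 (95% interval -0.54 to 0.19). For Cd34 and Dpt the differences were -0.01 with intervals from -0.25 to 0.23 and from -0.27 to 0.24. Across the 3 diets the rofecoxib mean was the highest for 8 of the 10 genes and the celecoxib mean for 2, and the control mean was the lowest for 7. Both contrasts with control use the same 8 control libraries, so these orders are not independent of each other. The share of all genes with each order was not computed. Since the 10 genes varied together (median r 0.755 over their pairs), they are not 10 separate observations.

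**Figure D2:**
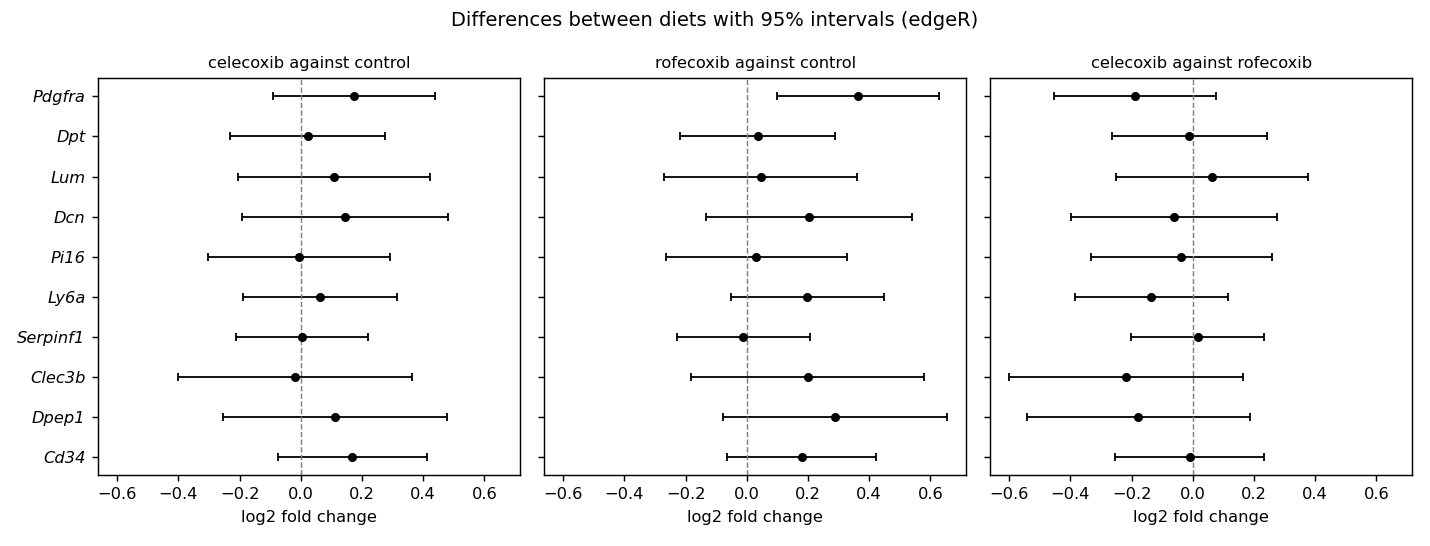
Log2 fold change of the 10 genes with its 95% interval from edgeR, for celecoxib against control, rofecoxib against control and celecoxib against rofecoxib. The interval of Pdgfra in rofecoxib against control, 0.10 to 0.63, is the 1 interval that does not cross the dashed line at 0.

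The genes differed more between libraries of a drug diet than between control libraries. The coefficient of variation was smallest in control aortas for 10 of 10 genes. Over all genes tested it was smallest in control for 49.1%. The 10 genes varied together (median r 0.755 over their pairs), so counts among them are not separate observations. For the 10 genes it had a median of 24.4% with celecoxib, 20.5% with rofecoxib and 12.6% in control aortas, beside 13.9%, 15.3% and 12.1% for all genes tested. Dpep1 had the widest scatter of the 10 with celecoxib, at 35.7%, and had 26.5% with rofecoxib and 10.6% in control aortas. The widest was Clec3b at 29.4% with rofecoxib, and Pi16 at 16.3% in control aortas. The coefficient was largest in celecoxib for 7 of the 10 genes and for 33.0% of all genes.

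Part of the celecoxib scatter followed the replicate numbers of the labels. In celecoxib aortas, replicates 5 to 8 all lay above replicates 1 to 4 for 8 of the 10 genes, the exceptions being Pi16 and Cd34, beside 5.83% of all genes tested. In rofecoxib and control aortas this was so for 0 of 10 genes, beside 3.47% and 5.36% of all genes. The labels do not say what the numbers mark; library construction took 3 days, and which library was made when is not given in the sources used here. Whether the days followed the replicate numbers or the diets is not known, so a day of construction cannot be told apart from either. The further numbers at the end of the sample titles run in separate blocks by diet. The same limit therefore holds for every comparison between diets.

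Pdgfra had 170 to 187 CPM in celecoxib replicates 5 to 8 and 101 to 131 CPM in celecoxib replicates 1 to 4, with 118 to 153 and 106 to 144.5 CPM in the same sets of control replicates. Dcn had 1359 to 1926 CPM in celecoxib replicates 5 to 8 and 761 to 1003 CPM in replicates 1 to 4. For Dpep1 the split was complete: replicates 5 to 8 had 91.8 to 144 CPM, above all 8 control libraries, and replicates 1 to 4 had 56.9 to 64.9 CPM, below all 8. Lum had 135 to 203.5 CPM in celecoxib replicates 5 to 8 and 89.9 to 115 CPM in replicates 1 to 4, and Clec3b 79.7 to 130 and 52.3 to 75.01 CPM.

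Fitted within each set of 4 replicates per diet, the celecoxib differences had opposite signs for 9 of the 10 genes. The share of all genes with opposite signs was not computed. This count uses the same celecoxib libraries as the split above. The 10 genes also varied together (median r 0.755 over their pairs), so these are not 9 separate observations. Against control, the log2 fold change of Dpep1 was -0.35 in replicates 1 to 4 and 0.44 in replicates 5 to 8, that of Clec3b -0.50 and 0.36, that of Dcn -0.26 and 0.43, and that of Lum -0.30 and 0.41. Pdgfra stood at -0.12 and 0.40, and Cd34, the exception in sign, at 0.02 and 0.30. None passed within either set, beside 9 of all genes in replicates 1 to 4 and 313 in replicates 5 to 8. The difference between the sets was tested in 1 edgeR fit with a mean for each diet and set, a test chosen after the data were seen. For celecoxib against control, 0 of the 10 genes passed it, beside 1.17% of all genes; 7 of the 10 had an unadjusted p under 0.05, beside 1967 of the 14528 genes. The differences between the sets, replicates 5 to 8 minus 1 to 4, were 0.71 (SE 0.22, edgeR adjusted p = 0.136) for Lum, 0.69 (SE 0.22, edgeR adjusted p = 0.149) for Dcn, 0.80 (SE 0.27, edgeR adjusted p = 0.191) for Dpep1 and 0.12 (SE 0.30, edgeR adjusted p = 0.887) for Pi16. For rofecoxib against control, 0 of the 10 passed and 0 had an unadjusted p under 0.05, beside 1.05% of all genes that passed; Pdgfra stood at 0.37 in replicates 1 to 4 and 0.35 in replicates 5 to 8.

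Celecoxib against rofecoxib was also examined within each set. In replicates 1 to 4 alone, 3 of the 10 genes were lower with celecoxib: Dpep1 by -0.65 (edgeR adjusted p = 0.0269), Pdgfra by -0.50 (edgeR adjusted p = 0.0363) and Ly6a by -0.43 (edgeR adjusted p = 0.0367). That fit called 2073 genes in all, and their share of the genes tested in it was not computed. For markers of other cell types in these replicates 1 to 4, the mean log2 level was 6.75 with celecoxib and 8.02 with rofecoxib for 14 adipocyte genes, 5.76 and 6.28 for 12 endothelial genes, 3.86 and 4.52 for 12 macrophage genes, and 10.36 and 9.97 for 12 smooth muscle genes. Their part in these 3 differences was not tested. In replicates 5 to 8 alone, 0 of the 10 and 0 of all genes passed. The test of that difference itself called 0 of the 10, beside 0% of all genes, and 6 had an unadjusted p under 0.05, beside 1940 of all genes; without rofecoxib replicate 4 it called 3 of the 10 and 374 of all genes.

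**Figure D3:**
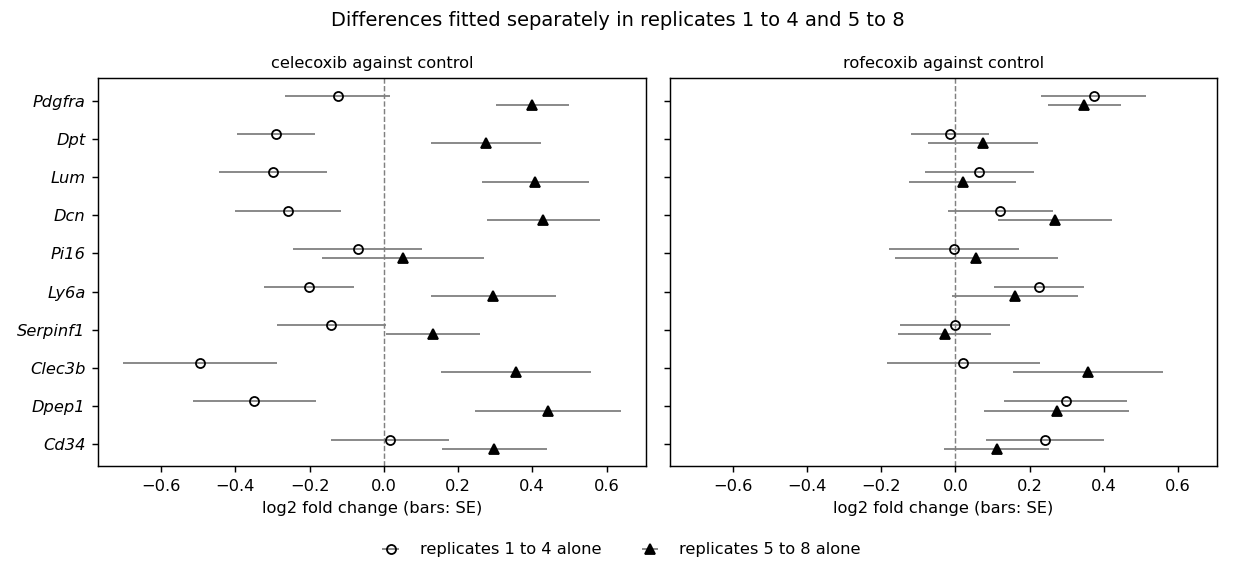
Log2 fold change with SE bars for celecoxib against control and rofecoxib against control, fitted separately in replicates 1 to 4 (open circles) and replicates 5 to 8 (filled triangles). For celecoxib the circles lie below 0 and the triangles above it for 9 of the 10 genes, with Dpep1 at -0.35 and 0.44. The genes varied together, so these are not 9 separate observations. For rofecoxib both symbols lie above 0 for Pdgfra, at 0.37 and 0.35.

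Other cell types were followed in the same sets. In celecoxib aortas the summed level of the 10 genes was 2754 to 3733 CPM in replicates 5 to 8 and 1880 to 2101 CPM in replicates 1 to 4. The mean log2 level of 34 other fibroblast genes was 6.32 in replicates 5 to 8 and 6.28 in replicates 1 to 4, against 7.73 and 7.16 for the 10 markers. The same levels were 10.17 and 10.36 for 12 smooth muscle genes, 6.08 and 5.76 for 12 endothelial genes, 4.18 and 3.86 for 12 macrophage genes, and 6.67 and 6.75 for 14 adipocyte genes. The part of these cells in the split was not tested.

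The 10 genes varied together from library to library. On log2 CPM centred on the diet means, Pearson's r over the 24 libraries had a median of 0.755 across the 45 pairs of genes and ranged from 0.416 to 0.932, and 43 pairs passed a permutation test within diets adjusted over the 45 pairs, 45 with Spearman's rho. The libraries share their RNA composition, so r describes co-variation only. Dcn was tied most closely to Dpt (r 0.932, rho 0.941) and to Pdgfra (r 0.926, rho 0.913). Pdgfra and Lum had r 0.925 and rho 0.923. Without the 2 libraries farthest from the median of Dpt, Dcn and Dpt had r 0.900. Without the 2 farthest from the median of Pdgfra, r was 0.895 for Pdgfra and Dcn and 0.917 for Pdgfra and Lum. For these 3 pairs the permutation p was 1e-05, the smallest that 100000 permutations can give, and 2.81e-05 after adjustment.

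Because the celecoxib libraries separated by replicate number, the pairs were also examined after centring on replicates 1 to 4 and 5 to 8 of each diet, a choice made after the data were seen. The median r was then 0.700, 40 of the 45 pairs passed, and the range was 0.276 to 0.923. Dpt and Dcn kept r 0.893 and Clec3b and Cd34 reached 0.923. Within single diets the median r over the 45 pairs was 0.798 in celecoxib, 0.813 in rofecoxib and 0.755 in control aortas. All 45 pairs were above 0 in celecoxib and in rofecoxib aortas, and 37 were in control aortas; the 8 pairs below 0 all involved Ly6a.

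Pi16 and Ly6a followed the others least. Pi16 had a median r of 0.539 with the other genes and was closest to Serpinf1, at 0.794. Its r with Pdgfra was 0.416 (rho 0.487, adjusted permutation p = 0.0566) and with Dcn 0.427 (adjusted permutation p = 0.0544), the 2 pairs that did not pass. Ly6a had a median r of 0.634, and in control aortas its r with each of the others lay between -0.341 and 0.125. The level of Ly6a followed the endothelial list (r 0.843) and the macrophage list (r 0.799) and ran against the smooth muscle list (r -0.679). With the macrophage list the remaining markers had r from 0.391 for Pdgfra to 0.666 for Dpep1. Pi16 followed the other fibroblast genes (r 0.888), whereas r with them was 0.337 for Dcn, 0.374 for Pdgfra, 0.408 for Lum and 0.492 for Dpt. The rest lay between 0.513 for Ly6a and 0.795 for Cd34. Dpt and Dpep1 had the highest median r with the other markers, 0.855 each.

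**Figure D4:**
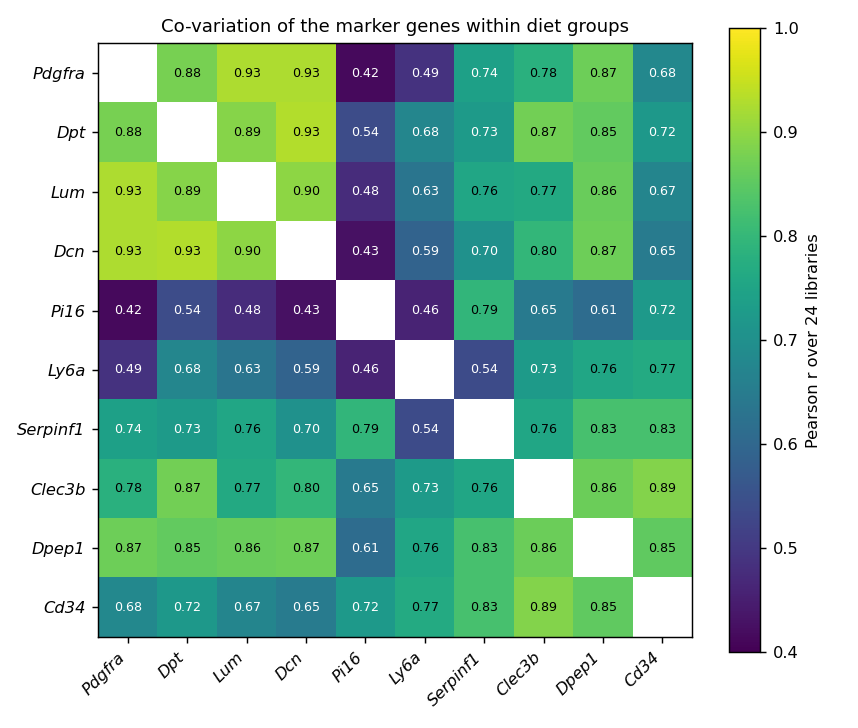
Pearson's r between the 10 genes over 24 libraries, on log2 CPM centred on the mean of each diet (colour scale from 0.4 to 1.0). Pdgfra, Dpt, Lum and Dcn form a block with r between 0.88 and 0.93, and the rows of Pi16 and Ly6a are the darkest, down to 0.42 for Pi16 with Pdgfra.

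A pair of libraries stood at the ends of this co-variation. Celecoxib replicate 7 was the highest of its group for 8 of the 10 genes, and rofecoxib replicate 4 the lowest of its group for 8 of the 10. Their mean deviations from the diet mean over the 10 genes were 0.51 and -0.46 on the log2 scale. Without both, the median r of the 45 pairs was 0.693 and 40 pairs passed.

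**Figure D5:**
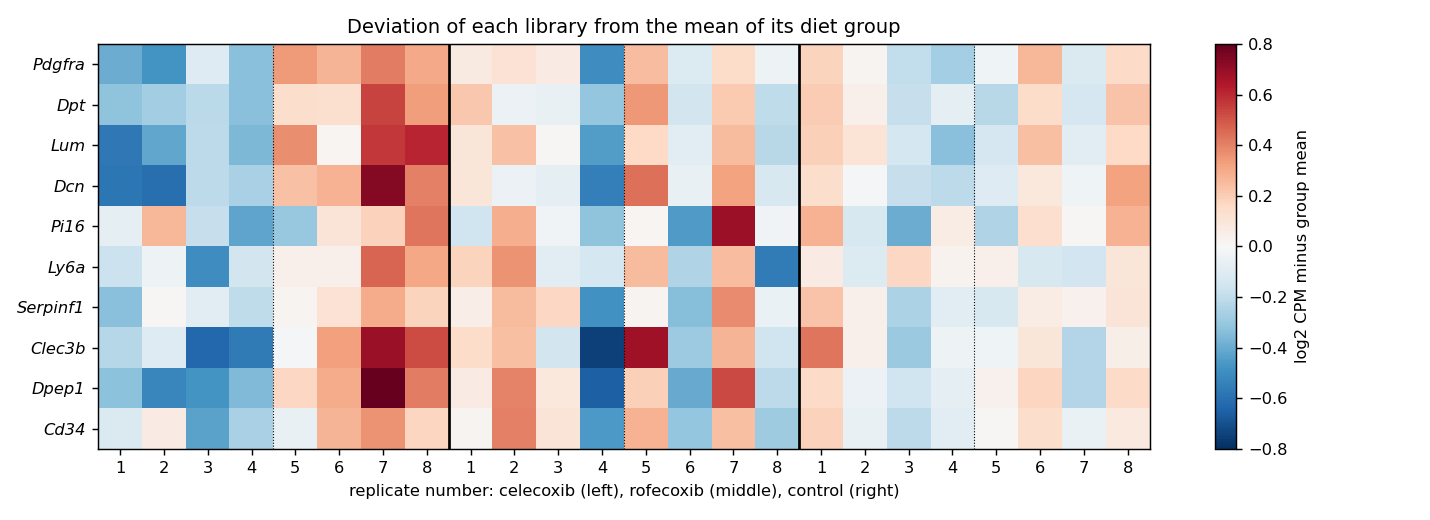
Deviation of each library from the mean of its diet, in log2 CPM, for the 10 genes (rows) and 24 libraries (columns: celecoxib left, rofecoxib middle, control right, by replicate number). The columns of celecoxib replicate 7 and rofecoxib replicate 4 are red and blue almost throughout, and celecoxib replicates 1 to 4 are mostly blue and 5 to 8 mostly red.

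The genes most like the 10 across libraries were sought among 10740 others with a mean of at least 5 CPM, by r with the mean of the standardized members. Scara5, a ferritin-binding scavenger receptor of fibroblasts, came first with r 0.942, followed by Srpx at 0.921, Vit at 0.911, the complement factor gene Cfb at 0.909, Bace2 at 0.905, Rnase4 at 0.901, Bicc1 at 0.891 and the complement gene C7 at 0.885. None of these 8 passed in any of the 3 comparisons; in rofecoxib against control Scara5 had a log2 fold change of 0.15 (SE 0.17) and Cfb one of 0.32 (SE 0.17). The most opposite were Sun2, a nuclear envelope gene, at r -0.798, Olfr1033 at -0.780 and Rnasek at -0.779. Sun2 was lower in rofecoxib than in control aortas, by -0.31 on the log2 scale (SE 0.08, edgeR adjusted p = 0.0228), and so was Olfr1033, by -0.83 (SE 0.19, edgeR adjusted p = 0.0153).

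A list of 34 other fibroblast genes was examined beside the 10 markers. Whether the lists differ was not tested. Bulk RNA does not show which cells the reads came from, so differences in these genes are not shown to lie in fibroblasts. Ogn and Fmod are also in the list of small leucine-rich proteoglycans that follows. Of the 34, all tested, 7 were lower and 2 higher in rofecoxib than in control aortas, beside 3.06% of all genes lower and 3.88% higher, with a median log2 fold change of -0.022. Col1a2, a chain of type I collagen, averaged 1938 ± 277 CPM with rofecoxib and 2639 ± 269.9 CPM in control aortas, with a difference of -0.45 on the log2 scale (SE 0.10, edgeR adjusted p = 0.0133), and 6 of 8 rofecoxib libraries lay below every control library. Ogn, the matrix proteoglycan osteoglycin, fell by 0.48 on the log2 scale (SE 0.11, edgeR adjusted p = 0.0158) and Mfap4, a microfibril-associated protein, by 0.52 (SE 0.12, edgeR adjusted p = 0.0206). Ebf2, a transcription factor of mesenchymal and adipocyte precursor cells, averaged 4.46 ± 2.51 CPM with rofecoxib and 1.86 ± 0.62 CPM in control aortas (log2 fold change 1.26, SE 0.32, edgeR adjusted p = 0.0249). The first 3 passed in all 24 fits without 1 library, whereas Ebf2 passed in 19 and was lost without rofecoxib replicates 2, 4 or 7 or control replicates 1 or 7. None of the 34 passed in replicates 1 to 4 alone, a fit that called 42 genes in all, or with adipocyte and smooth muscle levels as covariates, and 3 passed in replicates 5 to 8 alone, where Mfap4 and Ebf2 did not. In replicates 1 to 4 alone Col1a2 stood at -0.42, Ogn at -0.49 and Mfap4 at -0.59, and with covariates at -0.34, -0.25 and -0.29. Against control, celecoxib changed 0 of the 34 by edgeR, beside 0.0344% of all genes, and 0 by DESeq2, which called 110 genes in all. In replicates 5 to 8 alone 1 of the 34 passed, in a fit that called 313 genes in all. At an unadjusted p under 0.05 there were 4 of the 34, beside 1969 of the 14528 genes tested. The smallest p-values among them were those of Col1a1, at -0.35 (SE 0.14, edgeR adjusted p = 0.267), and Col5a1, at -0.21. Between celecoxib and rofecoxib, Mfap4 at 0.50 (edgeR adjusted p = 0.0371) and Ogn at 0.40 (edgeR adjusted p = 0.0397) were higher with celecoxib, beside 0.564% of all genes. Each was lost in 5 of 10 other settings. Without 1 library at a time Mfap4 passed in 15 of 24 fits and Ogn in 14.

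Dcn and Lum belong to the small leucine-rich proteoglycans, whose members share collagen-binding repeats. Of 10 other members of this family, 8 were tested, and 4 of these were lower in rofecoxib than in control aortas, beside 3.06% of all genes. The number was 0 in replicates 1 to 4 alone, 2 in replicates 5 to 8 alone and 0 with adipocyte and smooth muscle levels as covariates. Besides Ogn these were Prelp (log2 fold change -0.36, SE 0.09, edgeR adjusted p = 0.0198), Bgn (-0.34, SE 0.08, edgeR adjusted p = 0.0211) and Aspn (-0.55, SE 0.14, edgeR adjusted p = 0.0264), the last lost without control replicate 2. Bgn, which encodes biglycan, averaged 5800 ± 670.0 CPM with rofecoxib and 7320 ± 638 CPM in control aortas. The family median was -0.363, while Dcn had 0.204 and Lum 0.046 in the same comparison. With celecoxib none passed against control by edgeR or by DESeq2, at 0 genes with an unadjusted p under 0.05; Prelp had -0.14 and Bgn -0.12. Between celecoxib and rofecoxib the family had 1 call, Ogn, higher with celecoxib, beside 0.564% of all genes.

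Ligands and receptors around Pdgfra were measured as well. None of 6 PDGF genes passed in any comparison over all 24 libraries. Of all genes, 6.94% passed in rofecoxib against control, 0.0344% in celecoxib against control and 4.89% in celecoxib against rofecoxib. Pdgfd, a ligand that acts through the beta receptor, averaged 85.9 ± 16.2 CPM with rofecoxib and 112 ± 14.7 CPM in control aortas (log2 fold change -0.38, SE 0.13, edgeR adjusted p = 0.0611); DESeq2 called it, as did the fit on rofecoxib and control libraries alone. Pdgfc, a ligand of the alpha receptor, had -0.22 in rofecoxib and -0.30 (SE 0.10, edgeR adjusted p = 0.206) in celecoxib against control. Pdgfrl had 0.14 in celecoxib against control. Between celecoxib and rofecoxib, Pdgfd had 0.34 (edgeR adjusted p = 0.1) and Pdgfb -0.22. In replicates 1 to 4 alone Pdgfd was higher with celecoxib than with rofecoxib, by 0.66 on the log2 scale (edgeR adjusted p = 0.0303).

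Markers of other cell types were followed in rofecoxib against control aortas. Over all genes tested, 3.88% passed higher and 3.06% passed lower, and 54.9% had a log2 fold change above 0. Genes of the adipocyte, endothelial, smooth muscle, macrophage and Schwann cell lists passed, and none of the pericyte, skeletal muscle and mesothelial lists did. Of these last lists only 6, 5 and 1 genes were tested, too few to set them apart from the share over all genes. Of 14 adipocyte genes, 13 were above 0 in rofecoxib against control, with a median log2 fold change of 0.739 and 4 called higher, and their summed level was 2412 to 4937 CPM with celecoxib, 2814 to 8451 CPM with rofecoxib and 2681 to 7603 CPM in control aortas. Adipoq averaged 227 ± 81.8 CPM with rofecoxib and 147 ± 66.7 CPM in control aortas (edgeR adjusted p = 0.158). Of 12 endothelial genes, 11 were above 0 with a median of 0.228 and 3 called higher, and the summed level was 909 to 1494 CPM with celecoxib, 832 to 1514 CPM with rofecoxib and 926 to 1193 CPM in control aortas; Pecam1 averaged 312 ± 49.8 CPM with rofecoxib and 290 ± 35.2 CPM in control aortas (edgeR adjusted p = 0.495). All 12 smooth muscle genes were below 0 with a median of -0.180 and 1 called lower; Myh11 averaged 8074 ± 1116 CPM with rofecoxib and 9049 ± 1035 CPM in control aortas (edgeR adjusted p = 0.224). The medians were 0.331 for 12 macrophage genes and 0.984 for 10 Schwann cell genes, each list with 1 gene called higher and 1 called lower. Adgre1, a macrophage marker, averaged 5.50 ± 1.53 CPM with rofecoxib and 4.65 ± 0.71 CPM in control aortas (edgeR adjusted p = 0.316). The pericyte marker Rgs5 averaged 3234 ± 346 CPM with rofecoxib and 3318 ± 353 CPM in control aortas (edgeR adjusted p = 0.882). Ckm, of skeletal muscle, averaged 3.21 ± 1.05 CPM with rofecoxib and 3.99 ± 3.10 CPM in control aortas (edgeR adjusted p = 0.591). The mesothelial marker Msln had 126 reads in all and was at 0 in 7 libraries.

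With the adipocyte and smooth muscle levels as covariates, none of the 10 markers passed in rofecoxib against control. The 6 genes with the larger fold changes lay closer to 0 in that fit: Pdgfra had 0.31, Ly6a -0.07, Clec3b -0.03, Dpep1 0.05, Cd34 0.05 and Dcn 0.07 on the log2 scale. Dpt had -0.11, Lum -0.07, Serpinf1 -0.05 and Pi16 -0.03. No gene of the other fibroblast and proteoglycan lists passed in that fit, which called 38 genes in all. The covariates were taken from the same libraries and differed between the diets. The mean adipocyte level was 7.66 with rofecoxib and 6.90 in control aortas on the log2 scale, and the smooth muscle level 10.03 and 10.24. The fit therefore cannot tell these cell levels apart from the diet. The part of these cells in the differences without covariates was not tested.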

How the data were processed

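Poly(A) RNA of mouse thoracic aorta was sequenced in 24 libraries after TruSeq library construction over 3 days, per the labels' protocols. The deposited file holds whole-number counts of reads per gene in 24 columns, and the counts were used as they stand. The submitters' processing notes name CASAVA 1.8.1, STAR 2.5.1b and mm9. Counter, annotation and strand setting are not given in the sources used here. Totals per library ran from 21668798 to 21700121 reads, within 0.145% of each other; whether the authors made them alike is unknown, as is the depth before such a step. Groups and replicate numbers were read from sample titles.

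Differences were tested in edgeR 4.0.16 (R 4.3.3) by the quasi-likelihood test with TMM factors and filterByExpr by group. All 24 libraries entered 1 fit with a mean per group; p-values were two-sided and adjusted by Benjamini-Hochberg over 14528 genes at a threshold of 0.05. CPM per kilobase used the union of all annotated exons of a gene on GRCm38. Correlations were computed on log2 CPM (prior count 2) with 100000 two-sided permutations within diets. Scripts were tested on simulated data. The settings varied were scaling (RLE, library size alone), the expression filter, DESeq2 1.42.0, the groups in the fit, a replicate block, replicates 1 to 4 and 5 to 8, covariates and each library in turn. Every marker was named; from each related list up to 4 called genes with the smallest p were named, or else up to 2, with 8 defining markers of other cells, of which 1 is not reported here. The members and lists were chosen with earlier results of these data known. Since the submitters say only that replicates are biological, p-values measure the spread between these libraries.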

Additional observations from a re-analysis of the deposited data

How the results depend on the processing

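Across all settings the 10 markers gave few calls. Against control, rofecoxib called 1 of them, Pdgfra, with library size alone, with a term for replicates 1 to 4 against 5 to 8 and with only the 2 groups compared, and 0 elsewhere; celecoxib called 0 throughout; celecoxib against rofecoxib called 3 in replicates 1 to 4 alone and 0 elsewhere. Leaving out each library called 0 in every comparison. The cause of these changes was not tested. Log2 fold changes near 0 changed sign as follows. With library size alone, Serpinf1 had 0.052 in rofecoxib against control and -0.02 in celecoxib against rofecoxib, and Pi16 0.024 and Clec3b 0.016 in celecoxib against control. Without the expression filter, Pi16 had 0.0024 in celecoxib against control, and Dpt 0.006 and Cd34 0.008 in celecoxib against rofecoxib. With that term, Dpt had -0.00022 and Serpinf1 -0.00087 in celecoxib against control. In replicates 1 to 4 alone, celecoxib against control gave Pdgfra -0.124, Dpt -0.29, Lum -0.299, Dcn -0.258, Ly6a -0.202, Serpinf1 -0.141, Dpep1 -0.349, Pdgfrl -0.074, Prelp 0.029 and Bgn 0.032; celecoxib against rofecoxib gave Lum -0.364 and Serpinf1 -0.14, and rofecoxib against control Dpt -0.014 and Pi16 -0.0036. In replicates 5 to 8 alone, celecoxib against control gave Pi16 0.052 and Clec3b 0.355, and celecoxib against rofecoxib Pdgfra 0.053, Dpt 0.2, Dcn 0.162, Ly6a 0.134, Dpep1 0.17 and Cd34 0.187. With covariates, rofecoxib against control gave Dpt -0.11, Lum -0.068, Pi16 -0.034, Ly6a -0.069 and Clec3b -0.029, celecoxib against control gave Serpinf1 -0.0021, and celecoxib against rofecoxib gave Dpt 0.113, Dcn 0.023, Pi16 0.033, Ly6a 0.158, Dpep1 0.043 and Cd34 0.129.

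With the replicate block, Dpt had -0.0012 and Serpinf1 -0.0028 in celecoxib against control, and 0 markers passed in any comparison. The deviations of same-numbered libraries had a median r of 0.071, against -0.003 for other numbers, so the numbers were not taken as pairs. For replicate 4, however, r lay between 0.253 and 0.65, for replicate 5 between 0.049 and 0.502 and for replicate 1 between 0.051 and 0.087. For replicates 2, 3, 6, 7 and 8 it ran from below 0 to above 0. Over all genes the block called 27 in celecoxib against control and 0 in celecoxib against rofecoxib, and moved the count in rofecoxib against control by less than 1.5 times.

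Without 1 library at a time, these ranges crossed 0. In rofecoxib against control they were -0.02 to 0.076 for Dpt, -0.09 to 0.09 for Pi16 and -0.071 to 0.048 for Serpinf1. In celecoxib against control they were -0.134 to 0.058 for Clec3b, -0.034 to 0.18 for Dpep1, -0.066 to 0.069 for Dpt, -0.012 to 0.124 for Ly6a, -0.073 to 0.05 for Pi16 and -0.041 to 0.048 for Serpinf1. In celecoxib against rofecoxib they were -0.068 to 0.052 for Cd34, -0.186 to 0.021 for Dcn, -0.101 to 0.042 for Dpt, -0.034 to 0.135 for Lum, -0.105 to 0.085 for Pi16 and -0.044 to 0.075 for Serpinf1.

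Counts over all genes varied more: DESeq2 called 1812 in rofecoxib against control, 110 in celecoxib against control and 1419 in celecoxib against rofecoxib; without the filter these were 557, 2 and 0, with covariates 38, 8 and 0, in replicates 1 to 4 alone 42, 9 and 2073, and in replicates 5 to 8 alone 401, 313 and 0. Without 1 library they were 358 to 1945, 0 to 34 and 0 to 1997. Other fibroblast genes called in rofecoxib against control were 0 with covariates and in replicates 1 to 4, 3 in replicates 5 to 8, and 4 to 13 without 1 library. Near-equal totals leave the original depth unknown. In rofecoxib against control, the 95% intervals of 5 of the other 9 markers (Dcn, Ly6a, Clec3b, Dpep1 and Cd34) reached above the 0.363 of Pdgfra, so they do not leave out a difference of that size.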
